A study of Mus musculus with 2 samples.

Results

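The 9 genes described here are products of pulmonary neuroendocrine cells, the rare hormone-secreting cells of the airway epithelium. They were Calca, Grp, Chga, Chgb, Scg2, Scg3, Scg5, Uchl1 and Ddc, a list of marker genes drawn up by function, with earlier results of these data known. They were matched to the array by gene name or by the current symbol of the transcript accession. All 9 were on the array, with 13 of its 41174 probes, against 27597 gene names in all. RNA came from the lung lobes of 2 male litter mates at E16.5 of gestation, 1 heterozygous (Foxj1 +/–) and 1 homozygous (Foxj1 –/–) for the Foxj1lacZ allele on a mixed Sv129/CD-1 background. Extralobular tissue had been trimmed away, and although some labels name epithelium, no step separating it is given, so whole lobes are assumed. Both embryos therefore carry the allele, and no wild-type lung entered the comparison. The heterozygous RNA was labelled with Cy3 and the homozygous RNA with Cy5 for co-hybridisation on 1 Agilent array, with no dye swap. Genotype, embryo and dye cannot be told apart in this design, and with 1 lung per genotype no value below is checked by a replicate or carries a p-value.

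Pulmonary neuroendocrine cells sit alone or in clusters called neuroepithelial bodies, often at airway branch points, and are among the earliest epithelial cells of the lung to differentiate. They store peptides and amines in dense-core granules and release them on stimulation, for instance by a change in airway oxygen. Granins are acidic proteins that build the granule core. Prohormone convertases cut the peptide precursors inside it, and an aromatic amino acid decarboxylase makes serotonin, which granules store as well. In lobes taken whole, fewer cells of a type and less RNA per cell cannot be told apart.

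Calca is the member whose probes are assigned to different transcript variants. Its primary transcript is spliced to give the mRNA of the hormone calcitonin, or to downstream exons that give the mRNA of calcitonin gene-related peptide (CGRP), the form known from neuroendocrine cells and sensory neurons. The file assigns 1 probe to transcript variant 1 (NM_007587) and the other to variant 2 (NM_001033954), and names the product of neither. Variant 1 is read here as the calcitonin mRNA and variant 2 as the CGRP mRNA, from general knowledge of the gene and the order of the probes along it, a reading that was not checked against a transcript sequence. On the mm8 build both lie on the minus strand of chromosome 7, the former at chr7:114424467-114424526 and the latter, 1628 bases further along the direction of transcription, at chr7:114422839-114422898. An exon annotation of mm8 was not used here. A stretch of 30 bases of each probe is shown because the probes gave different ratios, and capitals mark AATAAA, the polyadenylation signal that the variant 2 probe contains.
Calca variant 1 probe: ggcagtcatctggcttcctagtagagcttc
Calca variant 2 probe: gactctgtatccAATAAAcatgacagcatg

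Ddc was also read by a pair of probes that differed. They lie 60942 bases apart on the minus strand of chromosome 11, the one nearer the start of the gene (5′ probe) at chr11:11776262-11776321 and the other (3′ probe) at chr11:11715320-11715379. The file assigns both to the same transcript. They are shown whole, in lower case throughout, since no motif is marked.
Ddc 5′ probe: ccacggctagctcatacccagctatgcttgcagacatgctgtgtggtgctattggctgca
Ddc 3′ probe: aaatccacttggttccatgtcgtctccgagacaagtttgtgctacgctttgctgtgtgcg

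Promoter windows were taken for all members that had one. The cAMP response element, with the letters TGACGTCA in full and TGACG at its core, was looked for because genes for granule cargo are known to share it. RefSeq windows of the 250 bases before a start site (GRCm38.p6) were found for 8 of the 9 genes, Ddc having a pair of them. The full element stood in the windows of Chgb and Scg2, 72 and 68 bases before the start site, and in 1.55% of all 32851 windows. The core TGACG was read on either strand and counted also where it forms part of the full element. It stood in 6 of the 9 windows of the members (Calca, Chga, Chgb, Scg2, Scg3 and Scg5), against 17.8% of all windows. In Calca it lay 65 bases and in Chga 44 bases before the start site. The element was picked as known from such genes, so its share among the members is no independent result. The forkhead motif TGTTTAC was found on either strand in none of the members' windows and in 3.17% of all windows. The motif CAGCTG (E-box) stood in 1 of the members' windows, that of Chga, and in 13.0% of all windows. These matches describe letters only, and no binding was measured. The windows of Calca, the member with probes assigned to separate transcript variants, and of the chromogranins are given with the element or its core in capitals.
Calca, chr7:114636358-114636607, minus strand: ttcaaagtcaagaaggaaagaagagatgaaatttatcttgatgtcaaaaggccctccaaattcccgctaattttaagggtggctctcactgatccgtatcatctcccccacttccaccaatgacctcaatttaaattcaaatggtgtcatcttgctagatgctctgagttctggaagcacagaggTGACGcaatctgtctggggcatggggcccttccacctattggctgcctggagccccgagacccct
Chga, chr12:102554691-102554940, plus strand: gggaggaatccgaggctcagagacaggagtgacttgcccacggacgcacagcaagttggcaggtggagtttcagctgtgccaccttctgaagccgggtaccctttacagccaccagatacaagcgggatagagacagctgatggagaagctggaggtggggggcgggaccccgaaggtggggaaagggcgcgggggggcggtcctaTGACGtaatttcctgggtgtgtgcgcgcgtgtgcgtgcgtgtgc
Chgb, chr2:132781392-132781641, plus strand: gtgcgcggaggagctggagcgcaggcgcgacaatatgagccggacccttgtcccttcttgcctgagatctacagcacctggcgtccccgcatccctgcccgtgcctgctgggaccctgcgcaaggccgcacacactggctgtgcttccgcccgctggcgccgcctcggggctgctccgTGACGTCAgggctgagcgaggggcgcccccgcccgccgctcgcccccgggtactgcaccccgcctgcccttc

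Levels are log2 intensities of a channel after background correction and loess normalisation, and ratios are log2 of homozygous over heterozygous, so that −1 is a 2-fold lower level in the homozygous lung. The ± figure is the error that the scanner software assigns to a spot's log ratio, on the log2 scale, and covers spot noise but neither embryos nor probes. For a gene read by several probes it is the median of their errors, and the probes can differ by more. Signal stood well above background at 69.0% (heterozygous) and 75.6% (homozygous) of the 43379 mouse spots. Different probes of a gene differed with an SD of 0.27 over 7144 genes. Foxj1 itself stood at 9.53 in the heterozygous and 7.61 in the homozygous lung, a ratio of −1.92 ± 0.30. Whether the lacZ allele removes the stretch its probe reads was not settled here, so this value may not check the genotype labels.

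The peptide genes Grp and Calca had the lowest gene ratios of the 8 members detected, Calca as the median of 2 probes that differed. Grp encodes gastrin-releasing peptide, the bombesin-like growth and secretory peptide of neuroendocrine cells, and is read by 1 probe on chromosome 18. Its level was 11.47 in the heterozygous lung and 9.69 in the homozygous lung. The scanner's processed intensity for it was 1685.9 against 474.8. Grp was therefore 3.44-fold lower in the homozygous lung, at a log2 ratio of −1.78 ± 0.26, and 67 of 21171 detected genes (0.316%) had a ratio as low or lower. Among the 2190 genes within 0.5 log2 units of its brightness, the share was 0.548%.

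The variant 2 probe of Calca, read as CGRP, had a difference close in size to that of Grp. It stood at 9.91 in the heterozygous and 8.15 in the homozygous lung, with processed intensities of 531.0 and 138.3. The ratio was −1.76 ± 0.27, a 3.40-fold lower level. The variant 1 probe, read as calcitonin, stood at 8.11 and 7.51, with processed intensities of 136.4 and 79.7, and a ratio of −0.61 ± 0.23, or 1.52-fold lower. Both probes were lower in the homozygous lung, that of variant 2 by 1.16 more on the log2 scale. Of the 4965 genes with exactly 2 kept probes, 1.31% had probes that differed by as much or more, and the median gap was 0.20. The gap exceeds the scanner errors of both probes, but the array gives no second measurement of it. Taken as the median of both probes, Calca had a ratio of −1.18, 2.27-fold lower. With plain median centring instead of loess the gene stood at −0.98, just short of 2-fold, while the median of all genes moved to 0.22.

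**Figure D1:**
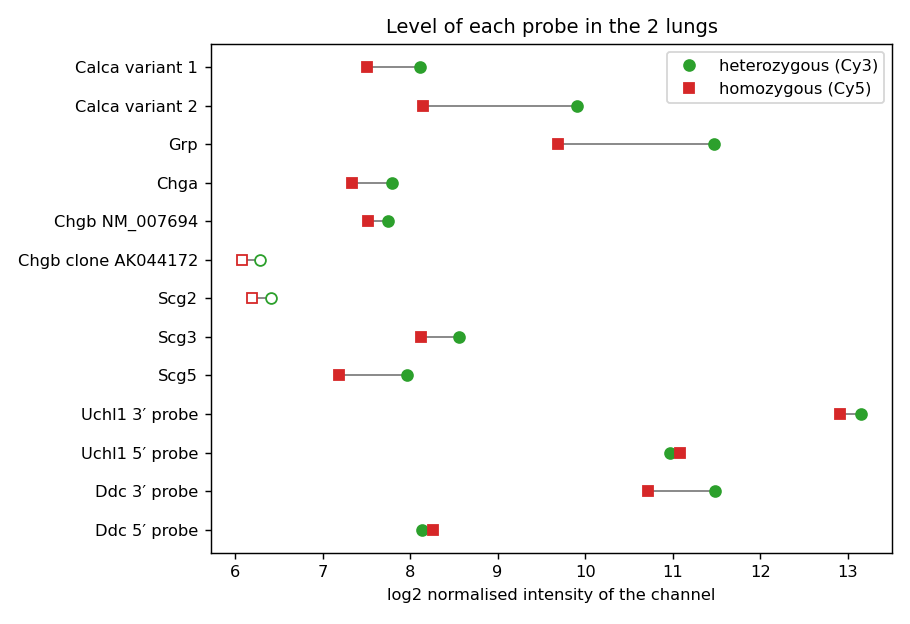
Level of each of the 13 probes (rows) as log2 normalised intensity of the channel, with circles for the heterozygous and squares for the homozygous lung, 1 lung each, and open symbols for the 2 probes not well above background. The widest gaps are those of Grp (11.47 and 9.69) and the Calca variant 2 probe (9.91 and 8.15), while the 5′ probes of Uchl1 and Ddc are slightly higher in the homozygous lung; levels of different probes are not comparable with each other.

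Granin genes were lower in the homozygous lung by smaller amounts, and none reached 2-fold. Scg5 encodes 7B2, the chaperone of prohormone convertase 2, and had the largest difference among them. Its level was 7.96 in the heterozygous and 7.18 in the homozygous lung, a ratio of −0.78 ± 0.25 or 1.72-fold lower. Its call depends on the processing, since the ratio was −1.05 with a normexp offset of 0 and −1.18 both by the scanner's log ratio and in the series matrix, each past 2-fold.

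Chga encodes chromogranin A, the granule core protein used as a general endocrine marker. It stood at 7.79 and 7.33, a ratio of −0.46 ± 0.24. Scg3 encodes secretogranin III, which binds chromogranin A to the granule membrane, and stood at 8.56 and 8.13, a ratio of −0.44 ± 0.21. Both differences were larger than the scanner error and smaller than 2-fold, at 1.37-fold and 1.35-fold. Among genes within 0.5 log2 units of their brightness, 13.5% had a ratio as low as that of Chga and 13.9% as low as that of Scg3, so neither stands far from genes of like brightness.

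Chgb, chromogranin B, is the member with repeated spots, 10 of the same probe. Its mean level was 7.75 in the heterozygous and 7.51 in the homozygous lung, a ratio of −0.24 with an SD of 0.11 between spots. The spots ran from −0.48 through a median of −0.23 to −0.03, and all 10 were below 0. The difference was thus seen across the slide within this pair of RNA samples, although 27.2% of genes of like brightness had a ratio as low. A further Chgb probe, from a cDNA clone (chr2:132475295-132475354) upstream of the repeated one (chr2:132486408-132486467), was not well above background in either lung. Scg2, which encodes secretogranin II, the precursor of secretoneurin, was likewise not well above background in either lung. Its processed intensities were 8.1 and 5.1, and no fold is given.

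Uchl1 and Ddc encode enzymes, and each was read by a pair of probes on either side of 0. Uchl1 encodes the deubiquitinating enzyme PGP9.5, abundant in neurons and neuroendocrine cells. Its 3′ probe (chr5:66966304-66966364, mm8) stood at 13.15 and 12.91, a ratio of −0.25 ± 0.20. Its 5′ probe, whose placement at chr5:66961782-66962873 spans 1092 bases for 60 bases of probe and so crosses an intron, stood at 10.97 and 11.09, a ratio of 0.12 ± 0.20. The probes differed by 0.37, and 24.1% of genes with 2 kept probes had a gap as large, so such a spread is common. The gene's ratio was −0.06, and 40.1% of detected genes had one as low. With median centring it was 0.52, or 0.30 above the median of all genes in that setting.

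Ddc encodes aromatic L-amino acid decarboxylase, the enzyme that makes serotonin and dopamine. Its 3′ probe stood at 11.48 in the heterozygous and 10.71 in the homozygous lung, with processed intensities of 1592.2 and 946.0. The ratio was −0.77 ± 0.22, or 1.71-fold lower. Its 5′ probe stood at 8.14 and 8.27, with processed intensities of 126.6 and 141.1 and a ratio of 0.13 ± 0.21. The probes thus differed by 0.90, a gap reached by 2.82% of genes with 2 kept probes, and only the 3′ probe was lower by more than its error. The gene's median was −0.32. With median centring it was 0.04, which is −0.18 relative to the median of all genes in that setting.

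**Figure D2:**
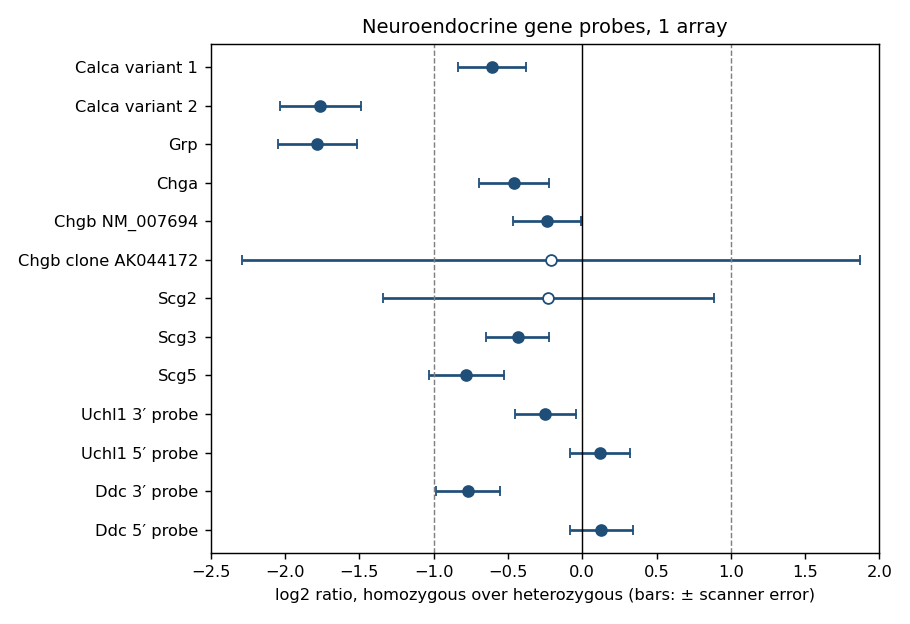
Log2 ratio of homozygous over heterozygous for each probe (rows), with bars for plus and minus the scanner software's error of 1 spot, or its mean over 10 spots for Chgb NM_007694, dashed lines at 2-fold, and open symbols for probes not well above background. Grp (−1.78) and the variant 2 probe of Calca (−1.76) lie beyond the 2-fold line, and the 2 probes above 0 are the 5′ probes of Uchl1 (0.12) and Ddc (0.13).

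Counted together, 8 of the 9 genes were well above background, each in both lungs, and 2 of the 8, Grp and Calca, were at least 2-fold lower in the homozygous lung. None was 2-fold higher. Over all 21171 detected genes the share lower by that much was 1.88%, and the share higher was 0.576%. All 8 ratios were below 0, against 50.4% of all detected genes, and with median centring 6 of 8 were, Uchl1 and Ddc being above. That setting raised the median of all genes to 0.22, and relative to it Ddc was at −0.18 and Uchl1 at 0.30. The median of the 8 was −0.45, against −0.0027 for all detected genes. By probe, 9 of the 11 kept probes were below 0 and 2 were at least 2-fold lower, against 1.75% of all kept probes. The list was chosen with earlier results of these data known, so these shares are no independent excess. With 8 genes from 1 pair of lungs these counts are a description.

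Other genes of the neuroendocrine pathway, 104 in 7 lists, were described in the same way. Of the 85 detected, 2 were at least 2-fold lower, close to the 1.88% of all detected genes, and none was 2-fold higher. Both are peptide precursors. Npy, which encodes neuropeptide Y of sympathetic neurons, was well above background in the heterozygous lung only (7.58, against 6.38). It was 2.30-fold lower in the homozygous lung (−1.20 ± 0.39). Its bound is the same value, since the dim homozygous reading was used as it stood. Penk, the proenkephalin precursor, stood at 10.80 and 9.65, a ratio of −1.15 with probes at −1.45 and −0.86. Over the 16 detected of 18 further peptide precursors the median was −0.13, with 12 below 0. At the other end Pthlh, the parathyroid hormone-related protein of lung epithelium, stood at 0.60 ± 0.21. Calcb, the gene of the other CGRP form, was not well above background in either lung.

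Processing enzymes and granule membrane genes did not differ by 2-fold. The median was −0.20 over the 9 detected of 13, with 8 below 0. Pam, which amidates peptides such as CGRP and gastrin-releasing peptide, was lowest at −0.46, but its 3 probes ran from −0.67 to 1.04. The prohormone convertases stood at 0.22 ± 0.29 for Pcsk1, the highest of the list, and −0.37 ± 0.31 for Pcsk2, and carboxypeptidase E (Cpe) at −0.04 ± 0.20. Genes for monoamines had a median of −0.13 over 8 detected of 11, with 4 below 0. They ran from −0.50 ± 0.24 for the serotonin transporter gene Slc6a4 to 0.33 ± 0.25 for Tph1, the serotonin-making hydroxylase outside the brain. The vesicular monoamine transporters stood at 0.02 ± 0.39 (Slc18a1) and 0.13 ± 0.23 (Slc18a2).

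The exocytosis machinery had a median of 0.01 over 15 detected of 16, with 7 below 0, from Syt4 at −0.51 ± 0.27 to Rab3b at 0.42 ± 0.36. The probes of Rab3b stood at 0.19 and 0.65. Syp, the synaptophysin gene used to mark neuroendocrine cells, was well above background in the homozygous lung only, at 6.79 against 6.73. Transcription factors of the lineage and Notch genes had a median of 0.02 over 13 detected of 18, with 6 below 0. Among those measured in both lungs, Prox1 was lowest (−0.20 ± 0.30) and the Notch ligand gene Dll3 highest (0.21 ± 0.23).

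Surface and signalling genes had a median of −0.01 over 14 detected of 15, with 8 below 0. Nrcam, a neural adhesion molecule, was lowest at −0.56 ± 0.22, with probes from −0.87 to −0.32. Epcam, found on all lung epithelium, was highest at 0.37 ± 0.21. Ncam1, the adhesion molecule of neuroendocrine bodies and nerves, had a median of −0.01 over 8 probes that ran from −0.37 to 0.30. Receptors for the peptides and amines had a median of −0.13 over 10 detected of 13, with 7 below 0. Of the CGRP receptor's parts, the co-receptor gene Ramp1 was lowest of the list at −0.75 ± 0.22, and Calcrl stood at −0.39, with probes at −0.81 and 0.02. Ramp2, the partner that turns Calcrl into an adrenomedullin receptor, was highest among those measured in both lungs, at 0.15. The gastrin-releasing peptide receptor gene Grpr stood at −0.14 ± 0.34.

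**Figure D3:**
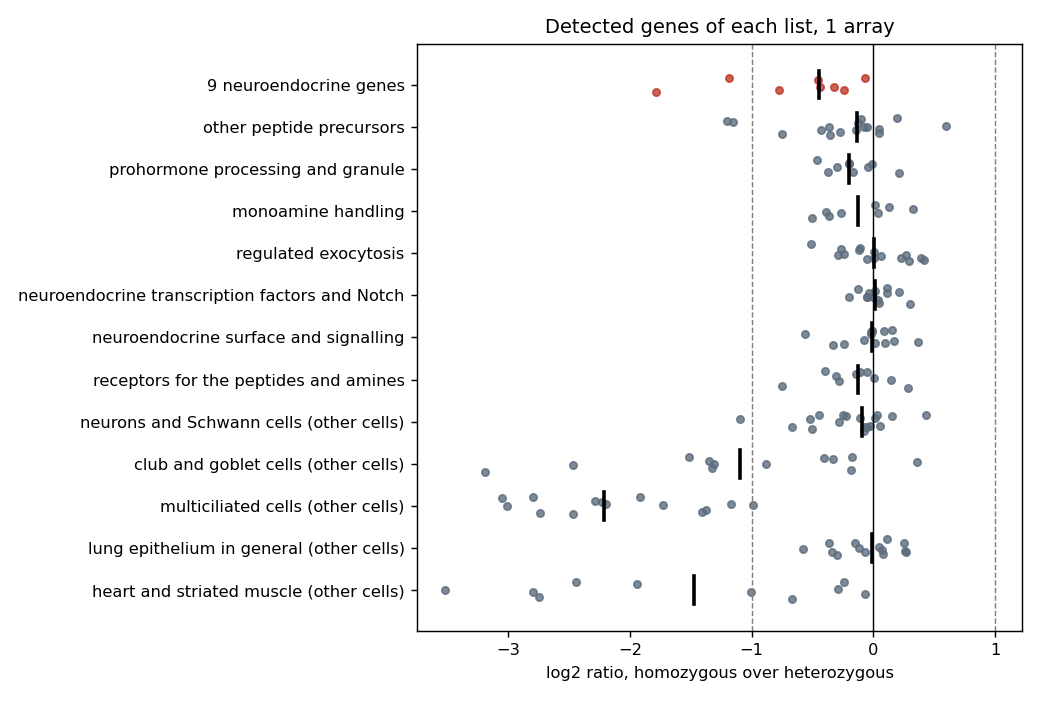
Log2 ratio of homozygous over heterozygous (horizontal axis) of every detected gene in each list (rows), with a bar at the list's median, dashed lines at 2-fold and vertical scatter for legibility only. The neuroendocrine genes have a median of −0.45, and the lists of their own pathway have medians from −0.20 to 0.02. Of other cells, neurons and Schwann cells (−0.09) and general lung epithelium (−0.01) lie near those lists. Club and goblet cells (−1.10), heart and striated muscle (−1.47) and multiciliated cells (−2.21) lie lower. With median centring Uchl1 and Ddc lie above 0, while all genes together shift to a median of 0.22.

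Several lists of genes from other cells of the lobes were also lower in the homozygous lung, and their part in the ratios above was not tested. Neurons express several of the 9 genes. Over the 18 detected of 21 neuron and Schwann cell genes the median was −0.09, with 13 below 0. The summed level, on the linear scale, was 6626 in the heterozygous and 5551 in the homozygous lung. For all detected genes the sums were 80532701 and 88777983. A sum weighs the brightest probes of a list most, and levels of different probes are not comparable, so sums do not measure cell content. The glial gene S100b was 2-fold lower (−1.10 ± 0.24). Next lowest were the neuronal gene Stmn2 (−0.67), the Schwann cell factor gene Sox10 (−0.52), the peripherin gene Prph (−0.51) and the neurofilament gene Nefl (−0.44). The neurofilament gene Nefm was highest (0.44 ± 0.26). Phox2a, a factor of autonomic neurons, and the ganglionic receptor gene Chrna3 were not well above background in either lung, and the neuronal tubulin gene Tubb3 stood at 0.15 ± 0.21. Club and goblet cell genes had a median of −1.10 over 12 detected of 13, with 11 below 0. Of these 12, 6 were at least 2-fold lower, namely Scgb3a1 (−3.19), Scgb1a1 (−2.47), Cyp2f2 (−1.52), Scgb3a2 (−1.35), Upk3a (−1.33) and Hp (−1.31). The highest was the club cell gene Aldh1a7 (0.36 ± 0.21), and the summed level of the list was 264138 against 139932. Scgb3a2, its brightest gene (17.34 and 15.99), weighs most in that sum. Multiciliated cell genes had a median of −2.21 over 14 detected, all except Ccdc39 (−0.99) at least 2-fold lower, in a list known from earlier results to be low.

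General lung epithelial genes such as Nkx2-1 and Cdh1 had a median of −0.01 over 14 detected. Krt19 was lowest (−0.58) and Sox2 highest (0.27), 7 of the 14 were below 0, and no member differed by 2-fold. The summed level of this list was 191319 in the heterozygous and 159039 in the homozygous lung, weighted by its brightest genes Krt8 (−0.36) and Krt18 (−0.34). Heart and striated muscle genes, which mark tissue carried along with the lobes or the muscle of pulmonary veins, had a median of −1.47 over 10 detected. Of these, 6 were at least 2-fold lower, Myl7 (−3.52), Csrp3 (−2.79), Tnni3 (−2.74), Tnnt2 (−2.45), Myl4 (−1.94) and Myh6 (2.01-fold), and the summed level was 45592 against 15535. Whether these genes share a cause with the ratios of Grp and Calca was not tested.

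For a single probe, the filters, the summaries over probes and the outlier spots cannot change the ratio, and the series matrix repeats the scanner's ratio. The settings that could were the offset, median centring and the scanner's log ratio. Grp stood at −1.84, −1.26 and −1.83 under these. The variant 2 probe of Calca stood at −1.95, −1.41 and −1.94, and the variant 1 probe at −0.78, −0.55 and −0.78. Grp and the variant 2 probe were past 2-fold in each. Over all settings Chga ran from −0.66 to −0.46, Scg3 from −0.51 to −0.23 and Chgb from −0.32 to −0.22, and none of these 3 reached 2-fold. The −0.22 of Chgb arose with no filter on dim probes, which brings in its clone probe.

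**Figure D4:**
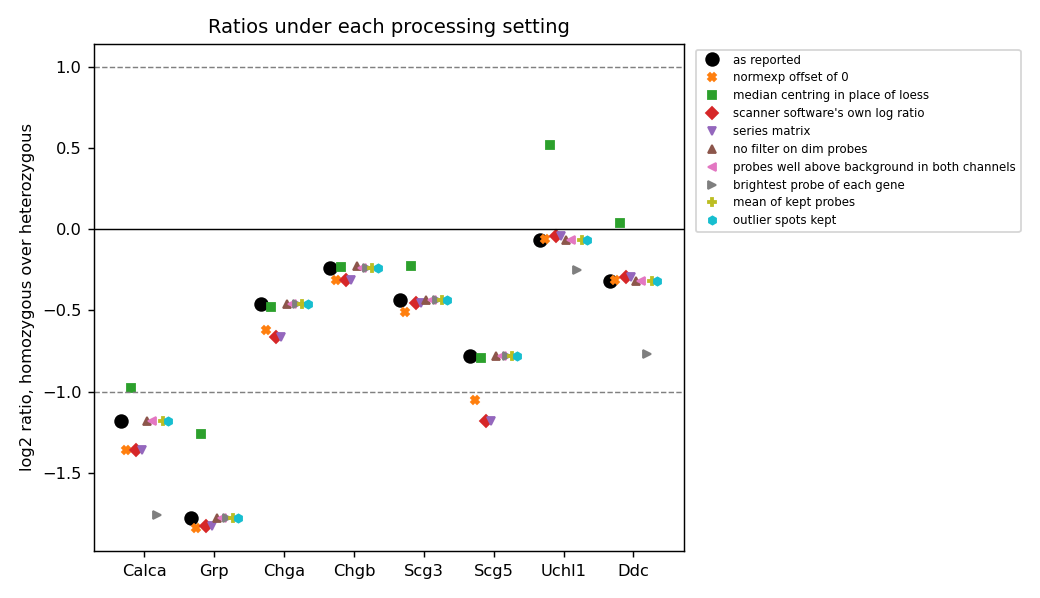
Log2 ratio of homozygous over heterozygous (vertical axis) of the 8 detected members under the processing reported and under 9 alternatives (symbols), with dashed lines at 2-fold. Grp stays below −1 throughout, Calca does so except with median centring (−0.98), and Uchl1 (0.52) and Ddc (0.04) are above 0 with median centring only, a setting that raised the median of all genes to 0.22.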

How the data were processed

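Lung lobe RNA (100 ng per embryo) was amplified in 1 round and labelled, per the labels' protocols. Both deposited scanner files hold the same 1 array of 2 channels, value for value. Spot and local background intensity values, and processed intensity values that were background-subtracted and dye-normalised by LOWESS (smoothing factor 0.25), were deposited, per the file headers. The submitters' processing notes name Agilent Feature Extraction 9.5.3.1. The deposited log10 ratio is red over green, per the file headers, and was converted to log2. The authors' series matrix holds each sample's processed intensity times 1.68, with a floor of 15, as a comparison with the scanner channels showed. Its medians are 139.8 and 138.8, and why it was rescaled is not known.

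Mean signals were corrected by normexp (offset 50), which understates changes of dim probes, and loess-normalised in limma 3.58.1 (R 4.3.3), a step tested on simulated data. The simulation changed only brighter probes under a constant dye factor. It therefore does not cover dim probes such as those of Chga and Chgb, or a dye bias that varies with intensity. Further steps used Python 3.11.15, numpy 2.4.6, pandas 2.3.3 and matplotlib 3.10.9. No spot was saturated, and 169 outlier spots were dropped, as were controls. Spots of a probe were averaged, probes with more than a 0.5 share of spots well above background in either channel were kept, and their median stood for the gene. Names came from RefSeq genes (GRCm38.p6). In all, 24375 probes were named by accession, 6301 by symbol and 2426 by synonym, while 8072 kept the file's name. A gene well above background in 1 channel has a bound, its level there over the higher of its own value and the lowest well-measured value in the other. The array gives no read depth, and 1 lung per genotype limits the precision.

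The members and lists were chosen with earlier results of these data known. All members and probes are named. From each of the 12 other lists, genes past 2-fold are named, or else the lowest and highest measured in both channels, with a fixed set of markers, of which those reported are named here (Pcsk1, Pcsk2, Cpe, Syp, Ncam1, Grpr, Calcrl, Tph1, Slc18a1, Slc18a2, Tubb3); other names were chosen after their values were seen, and the rest of the fixed set is not reported here. Multiciliated genes past 2-fold are given as a count. The alternatives were another offset, median centring, the scanner's log ratio, the series matrix, other filters on dim probes, other summaries over probes, and outlier spots kept.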

Additional observations from a re-analysis of the deposited data

How the results depend on the processing

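The count of members at least 2-fold lower was 2 as reported, and it moved under every alternative that recomputes the probe ratios. It was 1 with median centring, where Calca stood at −0.98. It was 3 with an offset of 0, by the scanner's log ratio and in the series matrix, which repeats that ratio, where Scg5 joined. The other 5 of 9 alternatives gave 2, but they leave the ratio of each member probe as it is and so say little about stability. No member was 2-fold higher under any of them. The median of the detected members ran from −0.61 to −0.36. Relative to the median of all genes, which median centring raised to 0.22, Calca stood at −1.20, Grp at −1.48, Scg5 at −1.01, Ddc at −0.18 and Uchl1 at 0.30 in that setting, so that Calca, Grp and Scg5 were past 2-fold on that scale. With the brightest probe of each gene, Calca was at −1.76 and Ddc at −0.77. Genes at least 2-fold lower over the whole array numbered 398 as reported, 773 at offset 0, 1143 by the scanner's log ratio and 1139 in the series matrix. Those at least 2-fold higher numbered 122 as reported, and 221, 593 and 457 in the same order. With median centring the split was 302 lower to 724 higher. The median of general lung epithelial genes moved from −0.01 to 0.52 with median centring. The cause of these shifts was not tested. Signal over background limits Scg2, the Chgb clone probe and Syp. No paired analysis was possible because each group holds 1 lung, and no lung could be left out.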
